A study of Mus musculus with 7 samples.

Results

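The genes described here are the 7 listed for antigen presentation by major histocompatibility complex (MHC) class II, taken by name from a count table of 55423 features: H2-Aa, H2-Ab1, H2-Eb1, H2-DMa, H2-DMb1, Cd74 and Ciita. All 7 were found in the table and all 7 passed the filter on low counts, which kept 24433 genes. Bulk RNA came from skin tumours (cutaneous squamous cell carcinoma) of 2 mouse genotypes. In Ivl:BRAFV600E mice a tamoxifen-inducible Cre recombinase under the involucrin (Ivl) promoter activated oncogenic BRAF in IVL+ cells of the epidermis. Ivl:BRAFV600E-SOX2LSL mice carried in addition a Rosa26 allele from which recombination releases SOX2 together with eGFP. Cre and the BRAF allele were therefore shared by both groups, and every mouse received topical tamoxifen, at 7 to 10 weeks of age by the labels (other records of the study give other ranges). Tumours were grown to the clinical endpoint, on a C57BL/6J background, which another of the study's records calls mixed C57BL/6. The comparison asks how tumours of the IVL+ population differ when SOX2 is overexpressed. The groups are called BRAF tumours and SOX2LSL tumours below, with 3 tumours of 3 mice in each. The numbers 1 to 3 only name the tumours. BRAF tumours 1 and 2 came from females and BRAF tumour 3 from a male, SOX2LSL tumours 1 and 2 came from males and SOX2LSL tumour 3 from a female. Sex and group follow the animal records. The mice of BRAF tumours 1 and 2, but not that of BRAF tumour 3, also carried a Rosa26 tdRFP reporter. By the same records every SOX2LSL tumour was collected sooner after induction than every BRAF tumour. Genotype and time since induction cannot be told apart in this design.

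MHC class II molecules are pairs of an alpha and a beta chain that carry peptides from the endosome to the cell surface, where CD4+ T cells read them. The invariant chain CD74 fills the groove while the pair is assembled and guides it to the endosome, and H2-DM then exchanges the last piece of CD74 for a peptide. Dendritic cells and B cells express these genes all the time, and macrophages can express them. Epidermal Langerhans cells are a dendritic-type cell known for expressing them, and keratinocytes can be induced to do so by interferon-gamma. CIITA, which does not bind DNA itself, is the coactivator that switches the whole group on through RFX and NF-Y proteins bound to the X and Y boxes of their promoters.

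Stretches with X and Y box cores are shown because CIITA acts through these boxes. In the RefSeq promoter table (GRCm38.p6) 4 of the 7 genes were matched, H2-Aa, H2-DMa, H2-DMb1 and H2-Eb1, together with H2-DMb2, H2-Eb2, H2-Oa and H2-Ob of the same family. The 250 bases before each start were searched on both strands for the X box core CCNNGNNAC followed on the same strand by the Y box core ATTGG, with 20 to 50 bases from start to start. H2-DMb1, H2-Oa and H2-Ob held such a pair, as did 1.45% of the 32851 promoters in the table. With the shorter core CNNGNNAC, chosen after the sequences were seen, H2-Aa, H2-Eb1 and H2-Eb2 held it as well, against 3.98% of all promoters. The searched cores do not overlap each other within a pair, and a match describes the letters only. The stretches are printed 5′ to 3′ on the strand of the gene, with the X core (the longer form where it matched) and the Y core in capitals.
H2-Aa (chr17:34287855-34287919, minus strand): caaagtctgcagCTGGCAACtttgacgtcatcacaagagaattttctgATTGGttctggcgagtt
H2-Eb1 (chr17:34305761-34305824, plus strand): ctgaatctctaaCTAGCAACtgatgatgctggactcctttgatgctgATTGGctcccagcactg
H2-Ob (chr17:34238802-34238864, plus strand): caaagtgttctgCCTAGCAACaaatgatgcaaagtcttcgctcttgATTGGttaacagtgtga
H2-Eb2 (chr17:34325528-34325591, plus strand): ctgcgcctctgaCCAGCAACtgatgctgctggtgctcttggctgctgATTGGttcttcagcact
In H2-Aa, H2-Eb1 and H2-Ob the Y core began 48 to 59 bases before the RefSeq start and the X core 34 to 36 bases upstream of it. In H2-Eb2 the Y core lay farther out, 100 bases before the start, with the X core 35 bases upstream of it. In H2-DMb1 the Y core began 61 bases before that start and the X core 37 bases upstream of it. In GENCODE M21 the stretch of H2-DMb1 lies within the first exon, cores included, and that of H2-Oa reaches into it, so neither is printed. H2-DMa and H2-DMb2 held no such pair in this window. H2-Oa and H2-Ob encode H2-O, the inhibitor of H2-DM, and both were below 0.5 CPM in every tumour, as given further on.

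Each tumour had between 23565432 and 31152826 counts on genes. Sox2 had 0.716, 0.508 and 0.238 CPM (counts scaled to library size, after TMM) in BRAF tumours 1 to 3 and 182, 155 and 158 CPM in SOX2LSL tumours 1 to 3, as the group names say, and the eGFP transcript had 0 counts in every BRAF tumour and 3132 to 4957 in the SOX2LSL tumours. A level of 3 counts, between 0.0839 and 0.143 CPM, was taken as the floor of detection, for counting error only. Skeletal-muscle markers were present in the SOX2LSL libraries (117 to 806 summed CPM over 6 genes) and low in the BRAF libraries (2.36 to 4.75). By edgeR 5 of these 6 rose, Acta1, Ckm, Mylpf, Tnnt3 and Des (median log2 fold change of the 6, 8.64), each in 2 to 4 of 6 fits with a tumour removed. In BRAF tumours 1 to 3 Ckm had 0, 0 and 7 counts, Tnnt3 had 1 in each and Myh4 had 0 in each. Most of these lie below the floor, so the size of the muscle folds is uncertain. The part of the muscle markers in the class II values was not tested. The summed CPM of 6 keratinocyte markers was 77515 to 115989 in the BRAF and 10685 to 41253 in the SOX2LSL tumours, so that keratinocyte markers were abundant in every tumour, as the tissue label says. By edgeR 0 of the 6 were called, and 2 had an unadjusted p below 0.05, where 25.7% of all tested genes did in either direction. These were Krt1 (log2 fold change -2.24, edgeR adjusted p = 0.149) and Krt10 (-3.06, adjusted p = 0.0935), both lower in SOX2LSL tumours with no overlap. The lower sum came from Krt1, Krt10 and Krt14, while Krt5 had mean levels of 2619 CPM in BRAF and 3195 CPM in SOX2LSL tumours and Trp63 of 282 and 301 CPM. In bulk RNA, fewer cells of a type and less RNA per cell cannot be told apart.

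All 7 class II genes had higher means in the SOX2LSL tumours (52.8% of all tested genes had a log2 fold change above 0), by 1.78-fold for H2-DMa to 3.08-fold for H2-DMb1, and none passed the test. By edgeR's quasi-likelihood test with adjustment over 24433 genes, 0 of the 7 had an adjusted p below 0.05, where 3.9% of all tested genes did (2.39% higher and 1.51% lower in SOX2LSL tumours). At an unadjusted p below 0.05 there were 7 of 7, where 25.7% of all tested genes passed in either direction and 14.5% on the higher side. DESeq2 called 5 of the 7, where it called 15.0% of all genes (8.59% higher and 6.36% lower), and limma called 0, where it called 8.77% of all genes (4.8% higher and 3.97% lower). Without a filter on low counts edgeR called 2 of the 7, against 5.24% of all genes, and without SOX2LSL tumour 2 it called 1, against 0.84%. The median log2 fold change of the 7 was 1.19, against 0.04 over all tested genes and 0.04 over the 14430 genes with a mean of at least 1 CPM. In 3 of the 7 the groups were fully separated (H2-DMa, H2-DMb1 and Cd74), as in 34.2% of all tested genes (18.2% on the higher side).

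**Figure D1:**
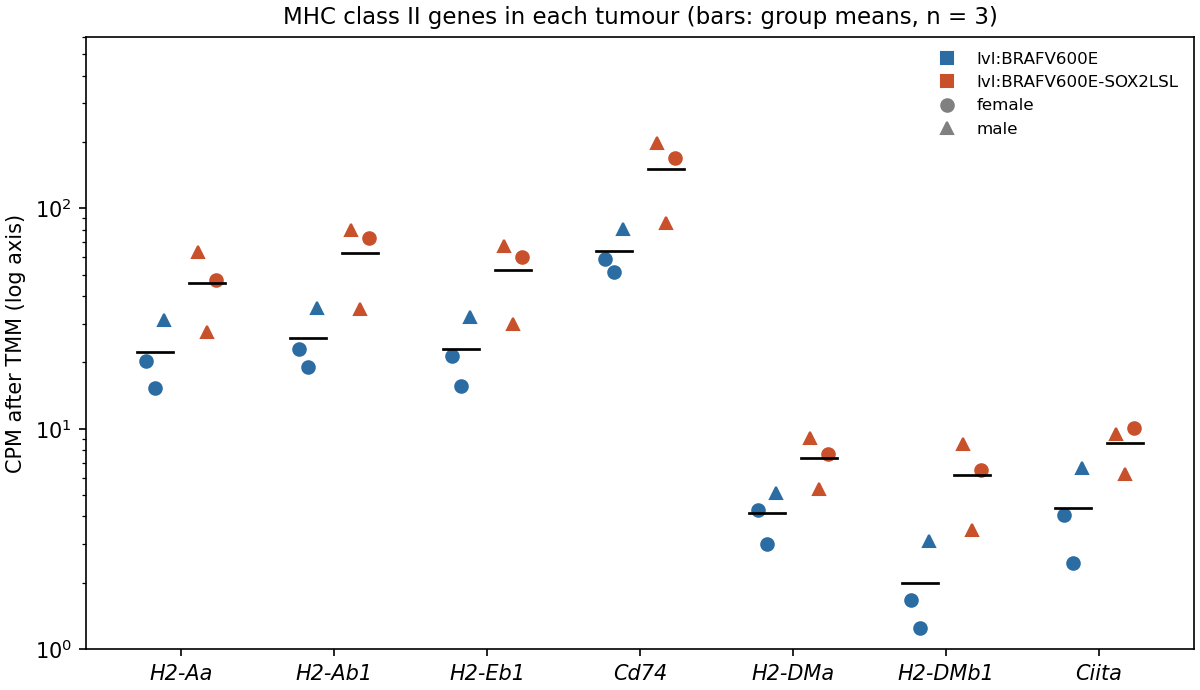
CPM after TMM (log axis) of the 7 class II genes in each of the 6 tumours; circles are females, triangles males, and bars are group means of 3 tumours. In every gene the lowest SOX2LSL tumour, number 2, lies close to the highest BRAF tumour, number 3.

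H2-Aa and H2-Ab1 encode the alpha and the beta chain of I-A, the class II molecule at the cell surface of C57BL/6 mice. H2-Aa (ENSMUSG00000036594, chr17:34282744-34287823, minus strand) had 20.2, 15.3 and 31.1 CPM in BRAF tumours 1 to 3 and 63.6, 27.4 and 47.1 CPM in SOX2LSL tumours 1 to 3. The groups overlapped, because SOX2LSL tumour 2 lay below BRAF tumour 3. By edgeR this was a log2 fold change of 1.05 ± 0.36 (SE) with an adjusted p of 0.131. H2-Ab1 (ENSMUSG00000073421, chr17:34257689-34269419, plus strand) had 23.0, 19.1 and 35.2 CPM in the BRAF tumours and 79.7, 34.8 and 73.1 CPM in the SOX2LSL tumours. Here too SOX2LSL tumour 2 and BRAF tumour 3 were at nearly the same level, and the other SOX2LSL tumours were above every BRAF tumour. For H2-Ab1 edgeR gave a log2 fold change of 1.28 ± 0.35 (SE) and an adjusted p of 0.0863, with a 95% interval of 1.36 to 4.32-fold that is not adjusted for the number of genes.

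H2-Eb1 encodes the beta chain of I-E, whose alpha-chain gene is not functional in C57BL/6 mice. That alpha-chain gene, H2-Ea, had 0 counts in each of the 6 tumours. H2-Eb1 (ENSMUSG00000060586, chr17:34305867-34316674, plus strand) had 21.3, 15.7 and 32.2 CPM in the BRAF tumours and 67.7, 30.0 and 60.4 CPM in the SOX2LSL tumours. The order of the tumours was that of H2-Aa and H2-Ab1, with the same overlap between SOX2LSL tumour 2 and BRAF tumour 3. By edgeR this was a log2 fold change of 1.19 ± 0.37 (SE) with an adjusted p of 0.105.

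Cd74, the invariant chain (ENSMUSG00000024610, chromosome 18, 60803848 to 60812652, on the plus strand), was the most abundant of the 7 genes. It had 59.0, 51.6 and 80.4 CPM in the BRAF tumours and 198, 85.3 and 170 CPM in the SOX2LSL tumours. The groups did not overlap, but SOX2LSL tumour 2 exceeded BRAF tumour 3 by little. By edgeR this was a log2 fold change of 1.25 ± 0.32 (SE) with an adjusted p of 0.0744, the smallest adjusted p of the 7, with an unadjusted 95% interval of 1.40 to 4.02-fold.

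H2-DMa and H2-DMb1 encode chains of the peptide exchanger H2-DM. H2-DMa (ENSMUSG00000037649, chr17:34119541-34139101, plus strand) had 4.30, 3.0 and 5.08 CPM in the BRAF tumours and 9.04, 5.31 and 7.69 CPM in the SOX2LSL tumours, with no overlap (log2 fold change 0.83 ± 0.29 (SE), adjusted p = 0.136 by edgeR). H2-DMb1 (ENSMUSG00000079547, chr17:34153072-34160230, plus strand) had 1.67, 1.25 and 3.09 CPM in the BRAF tumours and 8.53, 3.47 and 6.46 CPM in the SOX2LSL tumours. It too had no overlap, and it had the largest fold of the 7 (log2 fold change 1.62 ± 0.45 (SE), adjusted p = 0.0882 by edgeR). H2-DMb1 rests on 27 to 65 counts in the BRAF tumours, fewer than any other of the 7 genes in the corresponding tumours. Its neighbour H2-DMb2 is a close copy, so that reads may have been split or lost between both. H2-DMb2 had 0.111 to 0.271 times the CPM of H2-DMb1 in the 6 tumours, and a log2 fold change of 1.26 (edgeR adjusted p = 0.170).

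For Ciita, the coactivator (ENSMUSG00000022504, chromosome 16, 10480059 to 10528418, on the plus strand), the values were 4.06, 2.45 and 6.60 CPM in the BRAF tumours and 9.48, 6.22 and 10.1 CPM in the SOX2LSL tumours. The groups overlapped at BRAF tumour 3 and SOX2LSL tumour 2, and Ciita was the only one of the 7 that was highest in SOX2LSL tumour 3 and not in SOX2LSL tumour 1. At 0.98 ± 0.38 (log2 fold change, SE) it had the largest edgeR adjusted p of the 7, 0.167. The CPM of H2-Ab1 was 5.66, 7.81 and 5.33 times that of Ciita in the BRAF tumours and 8.40, 5.59 and 7.25 times in the SOX2LSL tumours, and these ranges overlap. The sources do not say if counting used strand. Exons of H2-DMa share 360 bases with the antisense gene Brd2, those of Ciita share 329 bases with the antisense gene Dexi, and Cd74 shares 12 bases with Mir5107, so the counts of these genes carry that uncertainty. Of these overlaps, those of H2-DMa and Ciita cover 360 of 3448 and 329 of 9535 exonic bases.

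**Figure D2:**
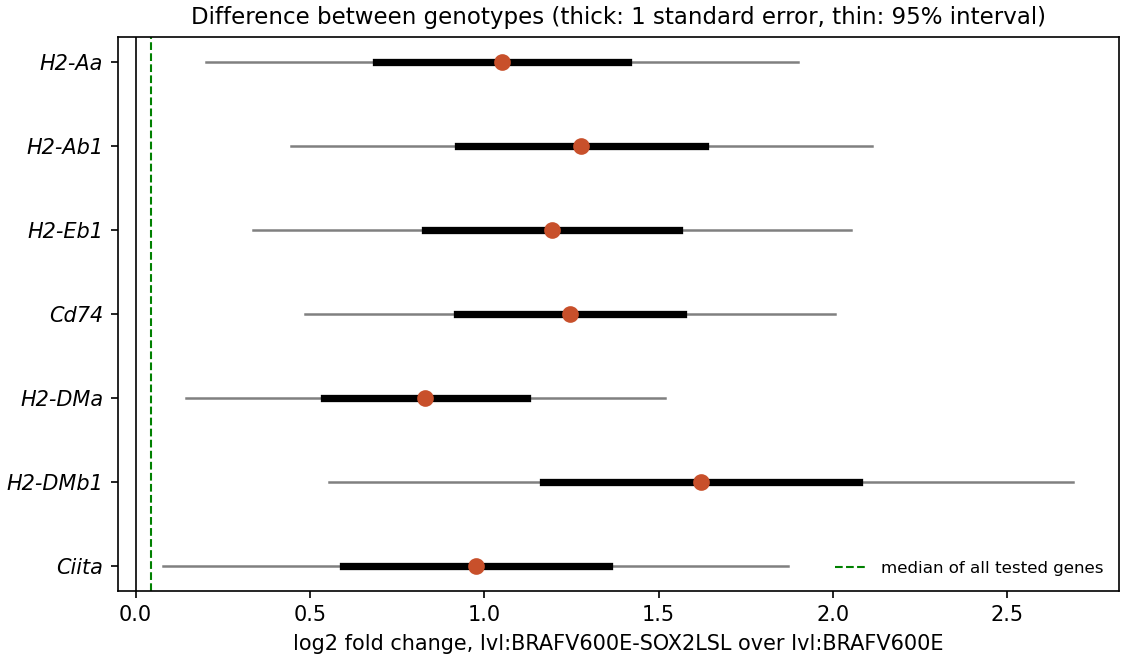
Log2 fold change of each class II gene, SOX2LSL over BRAF tumours, with 1 standard error (thick) and the 95% interval of the single gene (thin). The estimates run from 0.83 to 1.62 and the intervals of all 7 lie above 0 before adjustment over the 24433 tested genes, after which no gene passed.

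The tumours stood in nearly the same order in all 7 genes. BRAF tumour 2 was the lowest of the 6 tumours in 7 of 7 genes, BRAF tumour 3 the highest BRAF tumour in 7 of 7, SOX2LSL tumour 2 the lowest SOX2LSL tumour in 7 of 7, and SOX2LSL tumour 1 the highest of all in 6 of 7. Within one genotype the highest tumour had 1.56 times (Cd74) to 2.70 times (Ciita) the lowest among BRAF tumours and 1.62 times (Ciita) to 2.46 times (H2-DMb1) among SOX2LSL tumours. These spreads between mice of one genotype are of the size of the folds between genotypes. Over the 21 pairs of the 7 genes, Pearson's r of log2 CPM across the 6 tumours was 0.915 to 0.996, with a median of 0.984. With each genotype centred on its own mean it was 0.791 to 0.995, with a median of 0.961, so that the genes varied together inside the genotypes too. These are descriptions, from 6 tumours that share their libraries and scaling.

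Sex was uneven between the groups, and its direction was not the same in both: the BRAF male was above the BRAF females in summed class II CPM, and the SOX2LSL female lay between the SOX2LSL males. Among females, SOX2LSL tumour 3 was above both BRAF tumours in 7 of 7 genes, by 2.11-fold (H2-DMa) to 4.43-fold (H2-DMb1) over their mean. Among males, the mean of SOX2LSL tumours 1 and 2 was 1.19 times (Ciita) to 1.94 times (H2-DMb1) the value of the single BRAF tumour 3, and SOX2LSL tumour 2 was below BRAF tumour 3 in 4 of 7 genes. With 1 tumour in a cell of this split no test within a sex was made. With sex as a covariate the log2 fold changes of Cd74 and H2-Ab1 were 1.22 and 1.25, and 0 of the 7 genes were called by edgeR.

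Levels of different genes were compared per kb of exon. Cd74 had 37.9 ± 8.91 CPM per kb (SD, n = 3) in BRAF and 90.0 ± 34.9 (SD, n = 3) in SOX2LSL tumours. H2-Eb1 followed with 11.8 ± 4.32 and 27.1 ± 10.3 CPM per kb, H2-Ab1 with 10.0 ± 3.27 and 24.3 ± 9.44, and H2-Aa with 5.85 ± 2.13 and 12.1 ± 4.77 (SD, n = 3 each). H2-DMa had 1.2 ± 0.305 and 2.13 ± 0.547, H2-DMb1 1.19 ± 0.574 and 3.66 ± 1.52, and Ciita 0.458 ± 0.220 and 0.901 ± 0.218 CPM per kb (SD, n = 3 each). By this measure the order within each of the 6 tumours was Cd74, H2-Eb1, H2-Ab1 and H2-Aa. The order of the last 3 depends on the length used, the joined exons of all annotated transcripts. That length was 1944 bases for H2-Eb1, 2568 for H2-Ab1 and 3798 for H2-Aa. In CPM, H2-Ab1 was above H2-Eb1 and H2-Eb1 above H2-Aa in every tumour. The group means of H2-Eb1 and H2-Ab1 differed by less than the SD between tumours, as did those of H2-DMa and H2-DMb1 in the BRAF tumours. The per-kb ratio of Cd74 to H2-Ab1 was 3.93, 4.13 and 3.49 in the BRAF tumours and 3.8, 3.76 and 3.55 in the SOX2LSL tumours. That ratio therefore stayed within a narrow range while Cd74 itself ranged from 51.6 to 198 CPM. The per-kb ratio of H2-DMb1 to H2-DMa was 0.798, 0.852 and 1.25 in the BRAF tumours and 1.94, 1.34 and 1.72 in the SOX2LSL tumours. These groups did not overlap. The ratio was picked after its values were seen and was given no test, and the 2 genes are uncertain for the reasons given above.

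**Figure D3:**
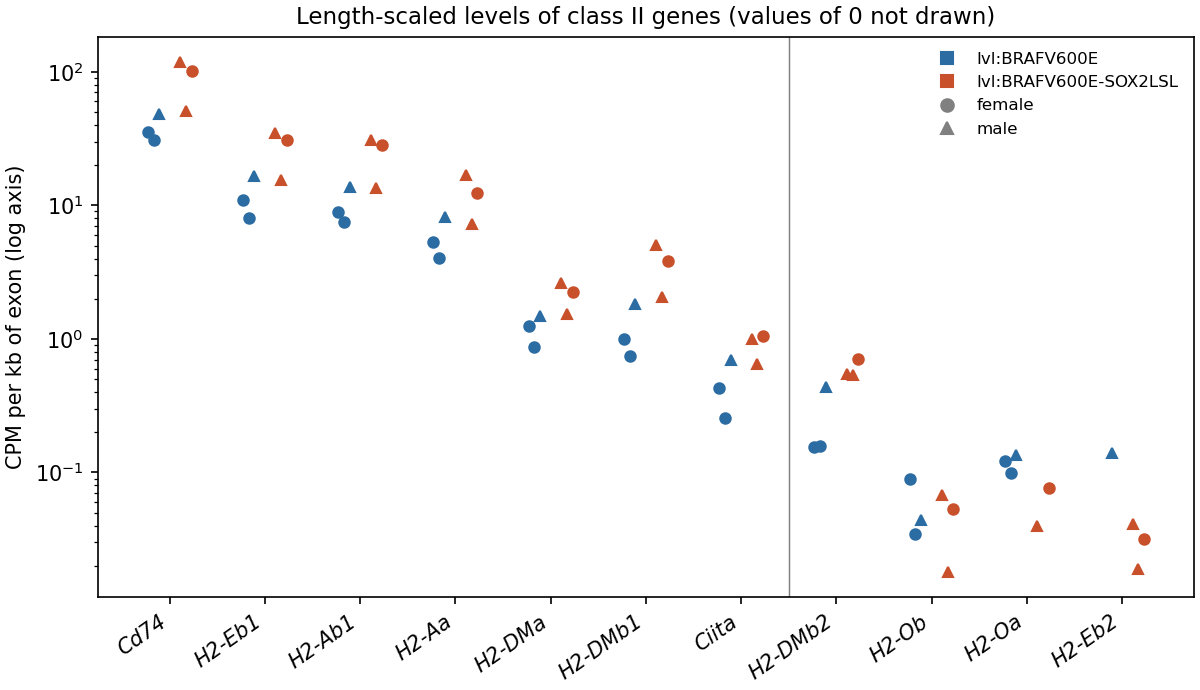
CPM per kb of exon (log axis) in each tumour for the 7 class II genes (left of the line) and for H2-DMb2, H2-Ob, H2-Oa and H2-Eb2 (right of it); circles are females and triangles males. Cd74 leads in every tumour, and the 4 genes on the right lie below 1 CPM per kb.

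The rest of the family was scarce. H2-Oa had 5, 3 and 4 counts in the BRAF tumours and 2, 0 and 3 counts in the SOX2LSL tumours, at or near the floor of 3 counts. H2-Ob had 0.477, 0.185 and 0.238 CPM in the BRAF tumours and 0.364, 0.0972 and 0.289 CPM in the SOX2LSL tumours, which overlap. H2-Eb2, a paralog of H2-Eb1, was at 0 counts in BRAF tumours 1 and 2 and at 0.475, 0.14, 0.0648 and 0.108 CPM in BRAF tumour 3 and SOX2LSL tumours 1 to 3. Of these 5 genes, H2-DMb2 and H2-Ea included, 4 were tested and 0 were called (edgeR, 1 at an unadjusted p below 0.05, namely H2-DMb2). The X and Y cores described above for H2-Oa and H2-Ob were thus found in genes below 0.5 CPM in these tumours as well as in H2-Aa, H2-Eb1 and H2-DMb1.

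Among the factors that bind the class II promoters, 0 of 7 were called by edgeR, with a median log2 fold change of 0.07. Rfx5, the DNA-binding subunit of RFX, had a log2 fold change of 0.51 (edgeR adjusted p = 0.162), and Nfya, the NF-Y subunit that recognises the Y box, one of 0.39 (edgeR adjusted p = 0.14). Their partner subunits differed in sign. Nfyb had a log2 fold change of 0.33, Rfxap one of -0.35 and Nfyc one of -0.21, none of them called. The unadjusted count was 2 of 7, namely Rfx5 and Nfya.

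Of 7 listed genes on the path from interferon-gamma to Ciita, 6 were tested and 2 rose in SOX2LSL tumours, Ifngr1 and Jak2, where 2.39% of all genes were called higher. Ifng itself, the cytokine, had 1 count in SOX2LSL tumour 1 and 0 counts in each other tumour. Ifngr1, the ligand-binding receptor chain, had 24.4, 15.7 and 28.7 CPM in the BRAF tumours and 50.5, 66.9 and 75.6 CPM in the SOX2LSL tumours. Every SOX2LSL tumour was above every BRAF tumour (log2 fold change 1.49, edgeR adjusted p = 0.0308). Jak2, a kinase on that receptor, had 32.2, 31.9 and 35 CPM in the BRAF tumours and 55.4, 70.1 and 56.6 CPM in the SOX2LSL tumours. The BRAF tumours were close together and below all SOX2LSL tumours (log2 fold change 0.88, edgeR adjusted p = 0.0267). In Ifngr1 and Jak2 SOX2LSL tumour 2 was not the lowest SOX2LSL tumour, unlike in the 7 class II genes. Irf1, an interferon-induced transcription factor that acts on Ciita, had a log2 fold change of 1.04 (edgeR adjusted p = 0.163). With each tumour removed in turn, Ifngr1 and Jak2 each passed in 1 of 6 fits.

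Among 9 endosomal proteases and helpers of the steps in which CD74 and the antigens are cut, 0 were called by edgeR. At an unadjusted p below 0.05 there were 5 on the higher and 2 on the lower side, where 25.7% of all tested genes passed in either direction. Cathepsin S (Ctss), the protease of the late CD74 steps, had 10.3, 13.6 and 28.4 CPM in the BRAF tumours and 88.4, 35.7 and 30.2 CPM in the SOX2LSL tumours. No SOX2LSL tumour lay below a BRAF tumour, although SOX2LSL tumour 3 nearly met BRAF tumour 3 (log2 fold change 1.56, edgeR adjusted p = 0.122). Ctsz and Lgmn had log2 fold changes of 1.95 (adjusted p = 0.0648) and 1.42 (adjusted p = 0.0727) by edgeR, and Cst3, an inhibitor of cathepsins, had one of -0.60 (edgeR adjusted p = 0.0944). Marchf1, the ubiquitin ligase that removes class II from the surface, had 1.36, 0.924 and 2.38 CPM in the BRAF tumours and 10.1, 4.6 and 3.0 CPM in the SOX2LSL tumours (log2 fold change 1.92, edgeR adjusted p = 0.0896). The related ligase Marchf8 was lower in every SOX2LSL tumour than in any BRAF tumour (log2 fold change -0.44, edgeR adjusted p = 0.163), and Cd83, which opposes that removal, had a log2 fold change of -0.05. By edgeR 0 of these 3 genes of class II surface turnover were called, and their median log2 fold change was -0.05.

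A presenting cell also shows T cells costimulatory and coinhibitory ligands and receptors. Of 6 such genes 1 rose, where 2.39% of all tested genes were called higher by edgeR. Cd80, a ligand of CD28, had 2.18, 4.20 and 3.18 CPM in the BRAF tumours and 11.9, 10.0 and 10.1 CPM in the SOX2LSL tumours, with no overlap (log2 fold change 1.75, edgeR adjusted p = 0.0267). The SOX2LSL tumours were close to each other in Cd80, in contrast to the class II genes. Cd86, the other CD28 ligand, had a log2 fold change of 0.80 (edgeR adjusted p = 0.191) and Cd40 one of 1.45 (edgeR adjusted p = 0.171). Icosl, the ligand of ICOS, went the other way, with a log2 fold change of -0.64 (edgeR adjusted p = 0.164). The coinhibitory ligands Cd274 (PD-L1) and Pdcd1lg2 (PD-L2) had log2 fold changes of 0.90 and 0.42, neither of them called. On the T-cell side, 0 of 7 genes were called by edgeR and 2 had an unadjusted p below 0.05. Cd4, the coreceptor for class II, had 1.02, 0.924 and 1.90 CPM in the BRAF tumours and 3.64, 1.65 and 2.89 CPM in the SOX2LSL tumours. Its 6 values stood in the order of those of H2-Aa. Pearson's r of log2 CPM with the mean centred profile of the class II genes was 0.989 for Cd4, the highest of this list. For Lag3, Cd28 and Cd3d that r was 0.864, 0.817 and 0.746. For Cd3g, Cd3e and Ctla4 it was 0.558, 0.551 and 0.161, with log2 fold changes of 0.34, 0.54 and 0.06.

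Class II genes were set beside those of MHC class I, which nearly all nucleated cells express. Of 9 class I genes, 1 was called by edgeR, Tapbp (tapasin, log2 fold change 1.11, adjusted p = 0.0414), where 2.39% of all tested genes were called higher. At an unadjusted p below 0.05 on the higher side there were 7 of 9, where 14.5% of all tested genes passed. The median log2 fold change of the 9 was 1.5. B2m had 48.0, 51.2 and 105 CPM in the BRAF tumours and 467, 130 and 183 CPM in the SOX2LSL tumours. Nlrc5, the class I counterpart of Ciita, had 26.6, 40.7 and 49.5 CPM in the BRAF tumours and 60.9, 35.9 and 38.8 CPM in the SOX2LSL tumours, which overlap. The difference between the class I and class II lists was not tested.

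Markers of leukocytes and of other cell types were set beside the class II genes. All 4 pan-leukocyte markers had higher means in SOX2LSL tumours, with summed CPM of 26.7 to 51.7 in BRAF and 82.7 to 147 in SOX2LSL tumours, and 2 of 4 were called by edgeR, Ptprc (CD45, log2 fold change 1.3, adjusted p = 0.0483) and Coro1a (1.59, adjusted p = 0.0437). Of 12 macrophage and monocyte markers 1 was called, Csf1r (log2 fold change 1.98, edgeR adjusted p = 0.0483). Over all tested genes 2.39% were called higher by edgeR. On the macrophage and monocyte list 11 of 12 had an unadjusted p below 0.05 by edgeR on the higher side, against 14.5% of all tested genes. In 9 of 12 the groups did not overlap, against 34.2% of all tested genes (18.2% on the higher side). The median log2 fold change of the list was 1.94. The list summed to 83.3 to 185 CPM in BRAF and 208 to 766 CPM in SOX2LSL tumours. Ptprc, Coro1a and Csf1r, as well as Cd80, Tapbp and Epcam, each passed in 1 of 6 fits with a tumour removed. The summed CPM of the 7 class II genes was 133, 108 and 194 in BRAF and 436, 192 and 375 in SOX2LSL tumours. Divided by the summed CPM of the pan-leukocyte markers, it was 4.99, 3.06 and 3.75 in the BRAF tumours and 2.97, 2.33 and 4.21 in the SOX2LSL tumours. Per pan-leukocyte signal the groups overlapped, with means of 3.93 ± 0.981 and 3.17 ± 0.957 (SD, n = 3 each), the lower in SOX2LSL tumours. Skeletal-muscle markers, given above, were also higher in SOX2LSL tumours. Of 5 fibroblast markers 0 were called by edgeR (1 at an unadjusted p below 0.05), 4 had a log2 fold change above 0 and the median was 1.04. Across the 6 tumours r with the class II profile was 0.921 for Col1a1, 0.902 for Pdgfra, 0.894 for Col1a2, 0.704 for Dcn and 0.653 for Lum, whose log2 fold change was -0.12. Among the pan-leukocyte markers it was 0.948 for Coro1a, 0.910 for Laptm5, 0.879 for Ptprc and 0.735 for Cd53. The part of leukocyte or other cell numbers in the class II difference was not tested.

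**Figure D4:**
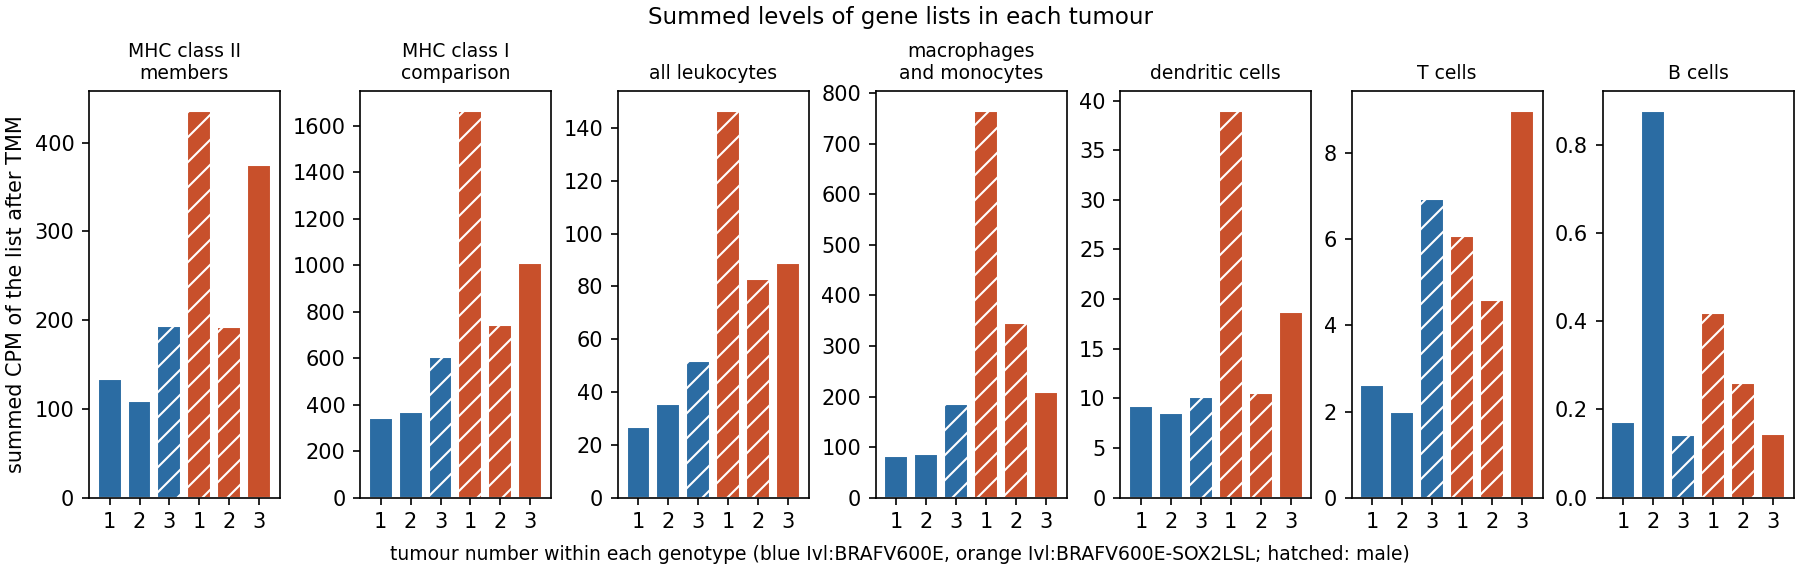
Summed CPM after TMM of the class II genes, 9 class I genes and markers of 5 kinds of leukocyte in each tumour, each panel with its own axis from 0 (blue BRAF, orange SOX2LSL, hatched male). SOX2LSL tumour 3 has 375 CPM of class II and 208 CPM of macrophage markers, SOX2LSL tumour 2 has 192 and 345 CPM.

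SOX2LSL tumours 2 and 3 differed in how class II went with cell markers. SOX2LSL tumour 3 had more summed class II CPM than SOX2LSL tumour 2 but less of the macrophage list, so that the ratio of both sums was 1.80 in tumour 3, 0.558 in tumour 2 and 0.569 in tumour 1, beside 1.6, 1.26 and 1.05 in the BRAF tumours. Adgre1 (F4/80), a macrophage marker, had 23.9, 12.8 and 7.19 CPM in SOX2LSL tumours 1 to 3, and Lyz2 had 224, 112 and 33.6 CPM. The integrin gene Itgax (CD11c), which dendritic cells and some macrophages express, had 29.0, 5.25 and 12 CPM in the same tumours, and 5.08 to 6.28 CPM in the BRAF tumours. Cd3e, of the T-cell receptor complex, had 0.811, 0.680 and 2.93 CPM in SOX2LSL tumours 1 to 3 and 0.682, 0.60 and 1.76 CPM in the BRAF tumours. Some other markers differed less between SOX2LSL tumours 2 and 3. Csf1r had 50.4 and 41.4 CPM there and Mertk 3.43 and 3.36 CPM. Cd68, with 21.7 and 22.4 CPM, was the only listed macrophage marker higher in tumour 3. The dendritic-cell markers Flt3 and Ccr7 had 1.13 and 0.648 CPM in tumour 2 and 1.19 and 0.614 CPM in tumour 3. Cd8a, with 0.421 and 0.361 CPM, was the only listed T-cell marker lower in tumour 3. SOX2LSL tumour 3 is the only female of its group, and each of these statements rests on single tumours.

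Markers of the other presenting cells differed in level. The 8 dendritic-cell markers summed to 8.54 to 10.2 CPM in BRAF and 10.5 to 39.0 CPM in SOX2LSL tumours, and 0 were called by edgeR (3 at an unadjusted p below 0.05). Xcr1 and Clec9a, which mark the cross-presenting type, did not exceed 0.795 CPM in any tumour. Cd207 (langerin), the defining marker of Langerhans cells, had 0.273, 0.370 and 0.713 CPM in the BRAF tumours and 0.560, 1.52 and 2.24 CPM in the SOX2LSL tumours, which overlap (edgeR adjusted p = 0.148). Epcam, on the same list, rose (log2 fold change 3.67, edgeR adjusted p = 0.0309), and it is also made by epithelial cells. The third marker of that list, Mfge8, had a log2 fold change of 0.72 (edgeR adjusted p = 0.121) with no overlap. The 3 genes summed to 49.0 to 65.6 CPM in BRAF and 184 to 512 CPM in SOX2LSL tumours, most of it Epcam in the SOX2LSL tumours. The B-cell markers Ms4a1, Cd79a, Cd79b and Pax5 summed to 0.143 to 0.877 CPM in BRAF and 0.144 to 0.420 CPM in SOX2LSL tumours, with Cd79a at or below 3 counts in every tumour, and 0 of the 3 tested were called by edgeR (0 at an unadjusted p below 0.05). B-cell markers were therefore near the floor in all 6 tumours, and their sums did not move with the class II genes.

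The genes whose pattern was most like that of the 7 were sought among 14423 other genes with a mean of at least 1 CPM, by Pearson's r of log2 CPM over 6 tumours with the mean centred profile of the 7. The 10 with the highest r, from 0.998 to 0.984, were Erg28, Fgd6, Rgs3, Gm43330, Dock10, Cd4, Ssbp4, Sfmbt1, Adcy5 and Zfp319. Cd4 (r = 0.989) was the only one of them on a list given above. Dock10, a guanine nucleotide exchange factor expressed in leukocytes, had 5.87, 4.30 and 7.89 CPM in the BRAF tumours and 12.1, 8.03 and 11.2 CPM in the SOX2LSL tumours (r = 0.990). Others had smaller folds than the class II genes, such as Erg28 and Sfmbt1 with log2 fold changes of 0.20 and 0.23. By edgeR 0 of the 10 passed at an adjusted p of 0.05, and their adjusted p ran from 0.097 to 0.469. Over all 14423 candidates r ran from -0.998 to 0.998, with a median of 0.0609. Among the listed genes, Psmb8, an immunoproteasome subunit, had r = 0.977, H2-K1 had 0.968 and Tap1 had 0.967.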

How the data were processed

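The deposited table holds raw read counts per gene, not normalised. Per the labels the authors made ribosomal RNA-depleted libraries, and their processing notes name FastQC 0.11.8, Trim Galore, HISAT2 2.1.0, GRCm38 and featureCounts of Subread 1.6.3. The settings for strand and multimapping are not given in the sources used here. The study's methods also name ComBat-seq batch correction, without saying if it touched this table. Its supplement places the tumours of both genotypes in a single sequencing batch. The labels do not name the mice of the columns: 6 columns were grouped by mouse from the study's animal records, and 1 of the 7 columns matched no listed mouse and was not used. The labels list 4 Ivl:BRAFV600E and 3 Ivl:BRAFV600E-SOX2LSL samples.

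A gene entered the tests when 1 tumour or more had 5 or more reads. Counts were scaled by TMM and tested with edgeR 4.0.16 (quasi-likelihood, genotype only, Benjamini-Hochberg at 0.05 over all genes) in R 4.3.3. Log2 CPM used a prior count of 2. Standard errors are the log2 fold change over the root of F. Alternatives were DESeq2 1.42.0 (the tool of the study), limma 3.58.1 (voom, sample weights), DESeq2 size factors, upper-quartile scaling, no filter, filterByExpr, sex as covariate and each tumour left out. Scripts were tested on simulated data. Positions and exon lengths are from GENCODE M21 (GRCm38), which held 55240 of the 55423 features, and promoters from RefSeq GRCm38.p6. Named genes are the 7, the pathway and marker lists, Sox2, and the 10 genes of closest pattern. The members and lists were chosen with earlier results of these data known. Some genes of the pathway and marker lists are not reported here and were left out of the lists' counts and sums.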

Additional observations from a re-analysis of the deposited data

How the results depend on the processing

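The direction of all 7 class II genes was the same in each of the 13 alternatives, with log2 fold changes of 0.64 to 1.02 for H2-DMa at one end and 1.31 to 2.07 for H2-DMb1 at the other. The number of the 7 with an adjusted p below 0.05 did change. It was 0 in the fit reported, 5 with DESeq2 (H2-Aa, H2-Ab1, H2-Eb1, H2-DMb1 and Cd74), 2 with no filter on low counts (H2-Ab1 and Cd74, where 5.24% of all genes were called) and 0 to 1 when a tumour was left out, the 1 being Cd74 without SOX2LSL tumour 2 (adjusted p = 0.0478, log2 fold change 1.53, where 0.84% of all genes were called). Adjusted p over the alternatives ranged from 0.00595 to 0.233 for Cd74 and from 0.0852 to 0.355 for Ciita. H2-DMa and Ciita were called in none of the 13. The number of all genes called was 954 in the fit reported, 3653 with DESeq2, 2142 with limma, 1759 with no filter, 228 with sex as a covariate and 22 to 1575 in fits without 1 tumour (22 without BRAF tumour 1, 50 and 179 without BRAF tumours 2 and 3, 1575, 202 and 412 without SOX2LSL tumours 1 to 3). Of the 108 tested genes on the pathway and marker lists, 13 were called in the fit reported, 42 with DESeq2 and 0 to 17 without 1 tumour (0 without BRAF tumour 1 or 2, 1 without BRAF tumour 3, 17, 3 and 5 without SOX2LSL tumours 1 to 3). The cause of these differences was not tested. No paired analysis was possible because the columns carry no replicate numbers. The number of tumours limits every statement here, and depth limits those on H2-Oa, H2-Ob, H2-Eb2, Ifng and the B-cell markers.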
